A study of Mus musculus with 21 samples.

Results

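The measurements described here are the gene counts of 12 RNA-seq libraries from mouse haematopoietic stem cells (HSCs), of 21 libraries in the series, and they come from a design in which genotype and drug were crossed. The genotypes were Mx1-Cre;Atg5fl/fl, called KO-labelled below, and WT. The drug was bortezomib, a proteasome inhibitor, given retro-orbitally at 10 mg/kg at 48 h and again at 24 h before the cells were taken, and the vehicle was 10% DMSO by the same route. The groups were KO-labelled bortezomib, KO-labelled DMSO, WT bortezomib and WT DMSO, with 3 libraries in each. All 12 libraries were made by SMART-seq2 from freshly isolated bone marrow HSCs sorted as CD48-, Lin-, Sca-1+, c-Kit+, CD150+ cells. The quantity described is the interaction, which is the bortezomib response in KO-labelled HSCs minus the bortezomib response in WT HSCs on the log2 scale. Genes with an interaction were then sorted by the shape of their levels over the 4 groups. The labels do not say whether libraries of a group came from separate animals, so p-values measure the spread between these libraries, part of which may be technical.

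The proteasome degrades proteins that carry ubiquitin chains, and its inhibition is known in many cells to induce the genes of its own subunits together with chaperones. Autophagy is the other main route for clearing proteins: a double membrane encloses cargo, and the Atg5 protein is needed to attach Atg8-family proteins such as Gabarapl1 to that membrane. Cargo that carries ubiquitin is brought to it by receptors such as Sqstm1, also known as p62. Mx1-Cre is driven by an interferon-inducible promoter and is active in many cell types besides HSCs, so the allele combination does not restrict deletion to HSCs.

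The gene-level count of Atg5 did not show a loss in the KO-labelled libraries. Atg5 (chromosome 10, 44268358 to 44364291, GRCm38) had 95.2, 95.4 and 142 CPM (counts scaled to a common library size) in the KO-labelled bortezomib libraries and 114, 113 and 107 CPM in KO-labelled DMSO. It had 100.4, 72.1 and 135 CPM in WT bortezomib and 55.0, 39.9 and 74.6 CPM in WT DMSO. In DMSO every KO-labelled library was above every WT library, a difference that edgeR did not call, and under bortezomib the genotypes overlapped. No KO-labelled library was below the WT range, and a count over the whole gene cannot show whether a floxed exon was lost. The Atg5 interaction was -0.87 ± 0.35 (log2, SE) with an edgeR adjusted p of 0.131. It was called under 7 of the 21 alternatives described below, with the lowest adjusted p, 0.0046, from limma voom, and its adjusted p was up to 0.292 under the others. The 3 other genes of the sort gate, chosen after their values were seen, were present in every library. Kit averaged 605 ± 103 CPM in KO-labelled bortezomib, 993 ± 114 CPM in KO-labelled DMSO, 408 ± 69.6 CPM in WT bortezomib and 894 ± 172 CPM in WT DMSO (SD, n = 3 each, as for every mean below). Slamf1, which encodes CD150, averaged 57.8 ± 8.25 CPM in KO-labelled bortezomib, 62.4 ± 6.78 CPM in KO-labelled DMSO, 27.6 ± 4.66 CPM in WT bortezomib and 43.8 ± 4.89 CPM in WT DMSO. Ly6a, which encodes Sca-1, averaged 657 ± 84.7 CPM in KO-labelled bortezomib, 407 ± 61.9 CPM in KO-labelled DMSO, 379.6 ± 113 CPM in WT bortezomib and 314 ± 95 CPM in WT DMSO. None of the 3 was called in the interaction, with edgeR adjusted p between 0.197 and 0.468. Of the 21 alternatives, Slamf1 was called under 2, Kit under 1 and Ly6a under 0.

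Total counts per library ran from 15005500 to 31481691, and between 17910 and 18899 genes had a count. The TMM scaling factors of the WT bortezomib libraries were 0.875 to 0.904, against 0.990 to 1.07 in the other 9 libraries. The libraries also differed in the share of Xist counts among Xist plus Ddx3y counts, which separates female from male RNA. The share was 100%, 0% and 3.51% in KO-labelled bortezomib, 0.234%, 0.390% and 0.987% in KO-labelled DMSO, 46.4%, 31.8% and 90.3% in WT bortezomib, and 99.2%, 98.6% and 60.0% in WT DMSO. Shares such as 46.4%, 31.8%, 60.0% and 90.3% mean that a library held both female and male RNA, and the labels do not say whether animals were pooled. KO-labelled bortezomib replicates 1 and 2, at 100% and 0%, differed in sex and so were not repeats of 1 animal. Genotype and Xist share are mostly confounded. The share also differed between treatments within a genotype. In WT HSCs, bortezomib replicates 1 and 2 had a lower share than every DMSO library. In KO-labelled HSCs, bortezomib replicate 1 had 100%, against 0.987% or less in DMSO. The responses and the interaction are therefore partly confounded with the share as well. Some genes given with an interaction lost their call with the share as a covariate. For these the adjusted p of that fit, or the highest over the alternatives, is given. Among markers of other cell types, 6 of 8 lists had at most 1 member called in the interaction, but each list holds only 5 to 16 tested genes. The endothelial and stromal list had a median interaction of 2.26 (log2), with 8 of 9 members above 0 and 4 called higher by DESeq2. The B cell list had a median of 1.38, with 5 of 7 above 0. The other lists had medians between -0.58 and 0.46. Summed levels of the lists moved between groups as well. Erythroid markers summed to 1089 to 1378 CPM in KO-labelled bortezomib and 1763 to 2151 CPM in KO-labelled DMSO. They summed to 2051 to 2174 CPM in WT bortezomib and 2228 to 2492 CPM in WT DMSO. In bulk RNA, fewer cells of a type and less RNA per cell cannot be told apart.

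The interaction was called for 1462 of 16149 genes tested (9.05%, edgeR adjusted p under 0.05). It was higher, meaning a more positive response in KO-labelled HSCs, for 702 genes (4.35%) and lower for 760 genes (4.71%). The median interaction of all genes was 0.06. When transcript length and GC content entered as offsets, the split became 34.1% higher, against 48.0% in the main fit. The bortezomib response was called for 586 genes in KO-labelled HSCs (3.63%), of which 326 rose (2.02%) and 260 fell (1.61%). In WT HSCs it was called for 2508 genes (15.5%), of which 1287 rose (7.97%) and 1221 fell (7.56%). These response sets come from different libraries and shared 176 genes, which is 30.03% of the KO-labelled calls and 7.02% of the WT calls. Of those genes, 118 moved the same way and 58 moved opposite ways. Among the WT calls, 1396 genes had neither a called interaction nor a call in KO-labelled HSCs. Among the KO-labelled calls, 205 genes had neither a called interaction nor a call in WT HSCs. For these genes, which are not those of the shapes below, a difference between genotypes was not shown. Between genotypes, 5234 genes (32.4%) were called under bortezomib and 0 genes (0%) in DMSO by edgeR. In DMSO 1454 genes had an unadjusted p under 0.05, and DESeq2 called 157 genes and limma voom 114.

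The count of 1462 depended on which libraries entered. Leaving out KO-labelled bortezomib replicate 1, 2 or 3 gave 768, 622 or 2820 genes. Leaving out KO-labelled DMSO replicate 1 or 2 gave 613 or 352. Leaving out WT bortezomib replicate 1 or 2 gave 397 or 681, and leaving out WT DMSO replicate 1 or 2 gave 741 or 416. The count was 276 with the Xist share as a covariate and 4015 with 3 libraries numbered 3 (KO-labelled bortezomib, WT bortezomib and WT DMSO) left out together. The sign of the interaction was steadier: all 1462 genes kept it under each of 21 alternatives in which they were tested, and 2 of them were not tested with the 3 libraries left out together. The genes were chosen by their call in the main fit and the alternatives reuse its libraries. Kept signs, here and below, are therefore not separate evidence for the interaction. Of the 1462 genes, 206 also kept their call under each alternative.

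**Figure D1:**
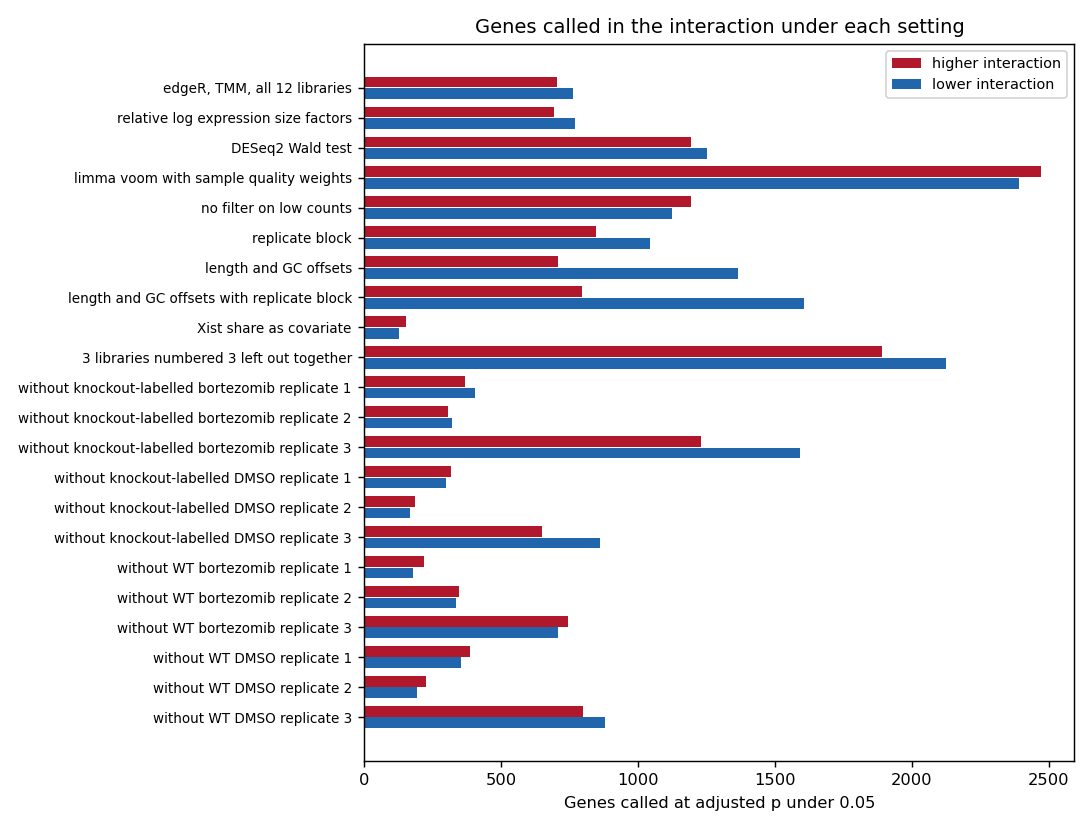
Genes called in the interaction at an edgeR, DESeq2 or limma adjusted p under 0.05 (x axis) under the main setting and each of 21 alternatives (rows), with red bars for a higher and blue bars for a lower interaction. The main setting gave 702 higher and 760 lower, and the totals over all settings ran from 276 with the Xist share as a covariate to 4862 with limma voom.

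By shape, 936 of the 1462 genes responded in WT HSCs only, 205 in KO-labelled HSCs only, 58 in opposite directions, and 5 in the same direction by different amounts. In the other 258 neither response was called on its own. A further 113 genes were shared, which means that both responses were called with the same sign and the interaction was not. "Only" refers to calls: among the 936 genes the KO-labelled response had a 95% interval within 1 log2 unit of 0 for 616, an unadjusted p under 0.05 for 227 and a size over 1 for 51. Among the 205 genes the WT response had such an interval for 138, an unadjusted p under 0.05 for 38 and a size over 1 for 4. As a description of the shapes, the 702 genes with a higher interaction had their highest mean in KO-labelled bortezomib in 573 cases and their lowest mean in WT bortezomib in 620. The 760 genes with a lower interaction had their lowest mean in KO-labelled bortezomib in 688 cases and their highest in WT bortezomib in 706. In these 1462 genes the median size of the difference between genotypes was 1.41 under bortezomib and 0.21 in DMSO (log2), against 0.63 under bortezomib and 0.28 in DMSO over all genes tested. These differences use the same libraries as the interaction and are not separate evidence for it.

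**Figure D2:**
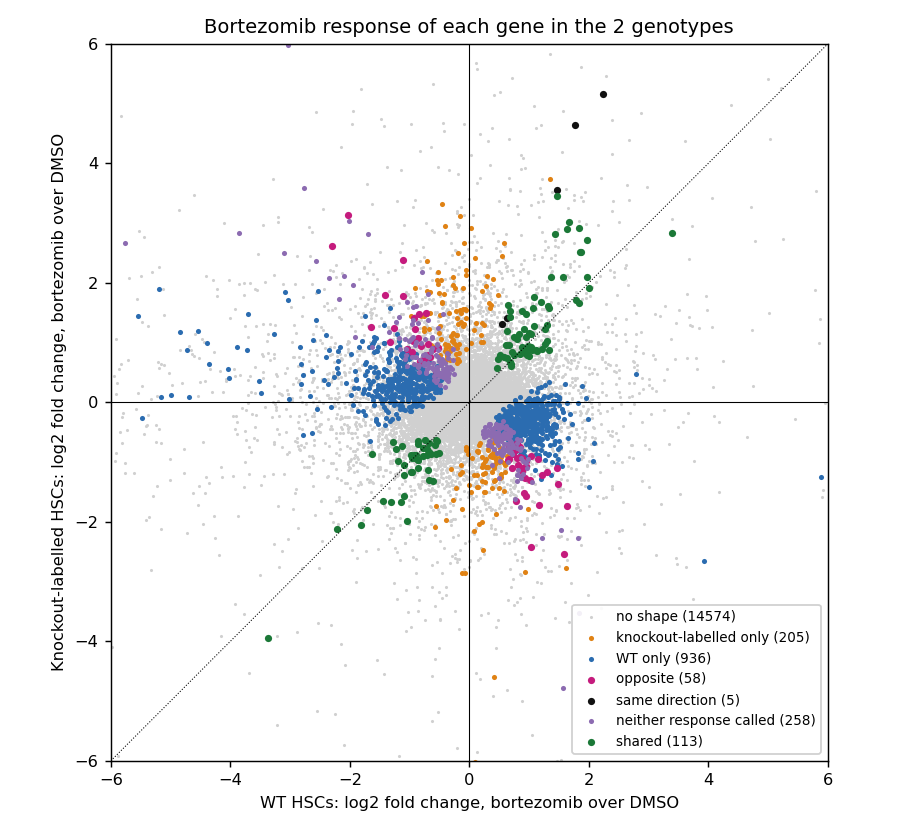
Each point is 1 of 16149 genes, placed by its log2 fold change with bortezomib in WT HSCs (x axis) and in KO-labelled HSCs (y axis), and coloured by shape. The WT only genes lie along the x axis, the KO only genes along the y axis, the opposite genes in the upper left and lower right quadrants, and the shared genes near the dotted line of equal response; 198 genes lie outside the axes.

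Genes that rose in WT HSCs and fell in KO-labelled HSCs numbered 33, with a median response of -1.10 in KO-labelled HSCs and 0.90 in WT HSCs. Acy1, an aminoacylase that releases amino acids from their acetylated forms (chromosome 9, 106432981 to 106438319), was among the 4 opposite genes with the smallest interaction p. Acy1 had 12.4, 12.8 and 13.0 CPM in the KO-labelled bortezomib libraries, 52.2, 39.2 and 28.2 CPM in KO-labelled DMSO, 60.7, 56.1 and 54.3 CPM in WT bortezomib, and 34.6, 31.4 and 33.5 CPM in WT DMSO. The 3 KO-labelled bortezomib libraries were the lowest of the 12 and the 3 WT bortezomib libraries the highest, with no overlap. The Acy1 response was -1.65 ± 0.21 in KO-labelled HSCs and 0.78 ± 0.21 in WT HSCs, and the interaction was -2.43 ± 0.30 with an edgeR adjusted p of 0.0023. Mcm5, a subunit of the helicase that unwinds DNA at replication origins, had 160.1, 94.1 and 144 CPM in KO-labelled bortezomib, 375, 377 and 192 CPM in KO-labelled DMSO, 609, 545 and 492 CPM in WT bortezomib, and 313, 296 and 279 CPM in WT DMSO. Again the bortezomib libraries of the 2 genotypes lay at the 2 ends, and KO-labelled DMSO replicate 3 lay below the other 5 DMSO libraries. The Mcm5 interaction was -2.14 ± 0.34 (edgeR adjusted p = 0.00494).

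Tk1, which salvages thymidine for DNA synthesis, averaged 35.3 ± 13.1 CPM in KO-labelled bortezomib, 82.0 ± 23.8 CPM in KO-labelled DMSO, 217 ± 45.0 CPM in WT bortezomib and 93.6 ± 12 CPM in WT DMSO. E2f1, a transcription factor of the G1 to S transition, averaged 30.3 ± 4.95 CPM in KO-labelled bortezomib, 63.2 ± 21.4 CPM in KO-labelled DMSO, 115 ± 6.62 CPM in WT bortezomib and 59.8 ± 5.82 CPM in WT DMSO. Phgdh, the first enzyme of serine synthesis from glycolysis, averaged 150.3 ± 55.8 CPM in KO-labelled bortezomib, 288 ± 60.5 CPM in KO-labelled DMSO, 489 ± 49.2 CPM in WT bortezomib and 282 ± 5.07 CPM in WT DMSO. The interactions of Tk1, E2f1 and Phgdh were -2.43, -2.01 and -1.73 (edgeR adjusted p = 0.00494, 0.00494 and 0.00882). Sdc1, the heparan sulfate proteoglycan syndecan, averaged 3.84 ± 2.06 CPM in KO-labelled bortezomib, 20.7 ± 6.84 CPM in KO-labelled DMSO, 27.5 ± 1.60 CPM in WT bortezomib and 13.4 ± 1.96 CPM in WT DMSO, with an interaction of -3.46 ± 0.47 (edgeR adjusted p = 0.0028). Bok, a member of the BCL2 family that promotes cell death, and Scrib, a cell polarity scaffold, had interactions of -3.37 and -2.89 (edgeR adjusted p = 0.00769 and 0.00599). Hbb-bt, a beta-globin of red cells with a near-identical copy in the genome that makes its count uncertain, averaged 22.6 ± 21.9 CPM in KO-labelled bortezomib, 133 ± 61.6 CPM in KO-labelled DMSO, 169.6 ± 20.4 CPM in WT bortezomib and 56.3 ± 12.4 CPM in WT DMSO. Its interaction was -4.14 ± 0.70 (edgeR adjusted p = 0.00637), and it was the 1 erythroid marker of 14 tested that was called. Most of the list went the other way, with 9 members above 0 and 5 below. The median interaction of the list was 0.41, or -0.28 without KO-labelled bortezomib replicate 1. What part the lower erythroid sum in KO-labelled bortezomib, given above, had in the Hbb-bt result was not tested.

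Genes that rose in KO-labelled HSCs and fell in WT HSCs numbered 25, with a median response of 1.03 in KO-labelled HSCs and -0.91 in WT HSCs. Klf6, a zinc finger factor of the immediate early class (chromosome 13, 5861482 to 5870394), had 144, 173 and 132 CPM in KO-labelled bortezomib, 62.9, 68.0 and 88.2 CPM in KO-labelled DMSO, 50.4, 52.1 and 58.4 CPM in WT bortezomib, and 101, 102 and 108 CPM in WT DMSO. No 2 of the groups overlapped. The Klf6 interaction was 1.98 ± 0.24 (edgeR adjusted p = 0.0023).

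Gabarapl1, the Atg8-family member named above, averaged 327 ± 35.8 CPM in KO-labelled bortezomib, 226 ± 8.64 CPM in KO-labelled DMSO, 186 ± 9.51 CPM in WT bortezomib and 272 ± 13.4 CPM in WT DMSO, with an interaction of 1.08 ± 0.20 (edgeR adjusted p = 0.00819). Birc3, an inhibitor of apoptosis and a known target of the factor NF-kB, averaged 67.0 ± 24.0 CPM in KO-labelled bortezomib, 36.2 ± 5.06 CPM in KO-labelled DMSO, 20.8 ± 1.03 CPM in WT bortezomib and 42.6 ± 3.16 CPM in WT DMSO, with an interaction of 1.92 ± 0.32 (edgeR adjusted p = 0.00586). Tcta and the PHD finger protein Phf1, which acts with Polycomb complexes, had interactions of 2.32 and 2.91 (edgeR adjusted p = 0.0028 for both). The 2 largest interactions of this direction were those of Fam46c, a poly(A) polymerase, and Cttnbp2nl. Fam46c averaged 38.5 ± 23.1 CPM in KO-labelled bortezomib, 4.35 ± 0.798 CPM in KO-labelled DMSO, 1.33 ± 1.40 CPM in WT bortezomib and 5.47 ± 1.5 CPM in WT DMSO, and its interaction was 5.17 ± 0.86 (edgeR adjusted p = 0.00574). KO-labelled bortezomib replicate 3, at 12.1 CPM, was below the other 2 libraries of its group at 55.0 and 48.4 CPM, and above all 9 libraries of the other groups. Cttnbp2nl had an interaction of 4.91 ± 0.90 (edgeR adjusted p = 0.00819). The interaction of all 58 opposite genes kept its sign under the 21 alternatives, and 55 of the 58 stayed called under all of them. The shape itself needs 3 calls and was less steady: between 8 genes (without WT bortezomib replicate 1) and 273 genes had it when a library was left out.

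The genes called in KO-labelled HSCs only comprised 109 that rose there and 96 that fell. Sqstm1, the ubiquitin receptor of autophagy (chromosome 11, 50199366 to 50210827), was among the most abundant of them. Sqstm1 had 1179, 1604 and 759 CPM in KO-labelled bortezomib, 318, 283 and 390.1 CPM in KO-labelled DMSO, 195, 204 and 284 CPM in WT bortezomib, and 315, 378 and 272 CPM in WT DMSO. The 3 KO-labelled bortezomib libraries stood above the other 9, although they differed from each other by more than those 9 did. The Sqstm1 response was 1.84 ± 0.25 in KO-labelled HSCs and -0.50 ± 0.24 in WT HSCs, and the interaction was 2.34 ± 0.34 (edgeR adjusted p = 0.00384). Me1, malic enzyme, which makes NADPH in the cytosol, had 45.9, 44.7 and 42.5 CPM in KO-labelled bortezomib, 7.28, 8.19 and 5.45 CPM in KO-labelled DMSO, 11.9, 10.5 and 16.7 CPM in WT bortezomib, and 13.5, 11.4 and 16.8 CPM in WT DMSO. The WT groups overlapped throughout, and the KO-labelled DMSO libraries lay below every WT library. The Me1 response was 2.67 ± 0.26 in KO-labelled HSCs and -0.09 ± 0.24 in WT HSCs, with an interaction of 2.76 ± 0.35 (edgeR adjusted p = 0.0028). Srxn1, sulfiredoxin, which restores oxidised peroxiredoxins, averaged 125 ± 13.6 CPM in KO-labelled bortezomib, 39.3 ± 6.03 CPM in KO-labelled DMSO, 65.5 ± 5.46 CPM in WT bortezomib and 51.8 ± 7.36 CPM in WT DMSO, and its interaction was 1.33 ± 0.25 (edgeR adjusted p = 0.00866). Bag3, a co-chaperone of Hsp70 in the autophagy of chaperone clients, averaged 32.6 ± 2.29 CPM in KO-labelled bortezomib, 16.6 ± 1.35 CPM in KO-labelled DMSO, 14.2 ± 1.96 CPM in WT bortezomib and 18.7 ± 1.43 CPM in WT DMSO, and its interaction was 1.37 ± 0.28 (edgeR adjusted p = 0.0119).

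Ier3, an immediate early gene that also rose in KO-labelled HSCs only, averaged 171 ± 16.9 CPM in KO-labelled bortezomib, 53.5 ± 3.44 CPM in KO-labelled DMSO, 35.0 ± 20.7 CPM in WT bortezomib and 48.1 ± 9.57 CPM in WT DMSO, with an interaction of 2.13 ± 0.41 (edgeR adjusted p = 0.00957). Csf2rb, the receptor subunit shared by GM-CSF, IL-3 and IL-5, had 212, 152 and 124 CPM in KO-labelled bortezomib, 66.5, 48.2 and 59.2 CPM in KO-labelled DMSO, 27.9, 24.8 and 33.2 CPM in WT bortezomib, and 38.5, 40.8 and 28.8 CPM in WT DMSO. Its 6 KO-labelled libraries were above all 6 WT libraries, and the genotype difference in DMSO was not called (edgeR adjusted p = 0.358), while the interaction was 1.82 ± 0.31 (edgeR adjusted p = 0.00615). Chpf2, an enzyme of chondroitin synthesis, and Scpep1, a carboxypeptidase of the lysosome, had interactions of 1.61 and 1.95 (edgeR adjusted p = 0.0028 and 0.00356). Socs3, a feedback inhibitor of cytokine receptors, had an interaction of 1.89, and Itgb3, the beta3 integrin of platelets and megakaryocytes, one of 2.09 (edgeR adjusted p = 0.0221 for both). These last 2 calls were less steady, with adjusted p up to 0.0734 for Socs3 and 0.148 for Itgb3 over the alternatives. Nol3, an inhibitor of apoptosis, had 4.83, 5.61 and 5.92 CPM in KO-labelled bortezomib and a count of 0 in each KO-labelled DMSO library, against 1.09, 0.378 and 1.24 CPM in WT bortezomib and 0.712, 0.221 and 0 CPM in WT DMSO. It was at least 28.7-fold higher in KO-labelled bortezomib than in KO-labelled DMSO, taking 3 counts in the library with the fewest counts of that group as the floor. The Nol3 interaction (edgeR adjusted p = 0.023) lost its call under 6 alternatives, the Xist share among them, with adjusted p up to 0.0787.

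Among the KO only falls, Tpi1, the triosephosphate isomerase of glycolysis, had 238, 188 and 329 CPM in KO-labelled bortezomib, 597, 544 and 457 CPM in KO-labelled DMSO, 635, 663 and 602 CPM in WT bortezomib, and 544, 537 and 554 CPM in WT DMSO. The KO-labelled bortezomib libraries were below the other 9. The Tpi1 interaction was -1.30 ± 0.26 (edgeR adjusted p = 0.0111, and 0.0534 with the Xist share as a covariate). Syt3, a synaptotagmin, averaged 0.904 ± 0.556 CPM in KO-labelled bortezomib, 6.52 ± 0.611 CPM in KO-labelled DMSO, 6.50 ± 1.93 CPM in WT bortezomib and 7.08 ± 0.462 CPM in WT DMSO, with an interaction of -2.74 ± 0.63 (edgeR adjusted p = 0.0177, and up to 0.0538 when 1 library was left out). Vwf, von Willebrand factor, which marks platelet-biased HSCs as well as megakaryocytes, averaged 28.7 ± 7.94 CPM in KO-labelled bortezomib, 65.7 ± 12.3 CPM in KO-labelled DMSO, 32.8 ± 3.41 CPM in WT bortezomib and 36.3 ± 3.91 CPM in WT DMSO. Its KO-labelled DMSO libraries were the 3 highest of the 12. The Vwf interaction of -1.05 ± 0.31 had an edgeR adjusted p of 0.0435, and adjusted p up to 0.14 over the alternatives. Megakaryocyte markers, among which Itgb3 rose and Vwf fell, summed to 819 to 1318 CPM in KO-labelled bortezomib, 875 to 990 CPM in KO-labelled DMSO, 1027 to 1164 CPM in WT bortezomib and 1132 to 1187 CPM in WT DMSO.

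**Figure D3:**
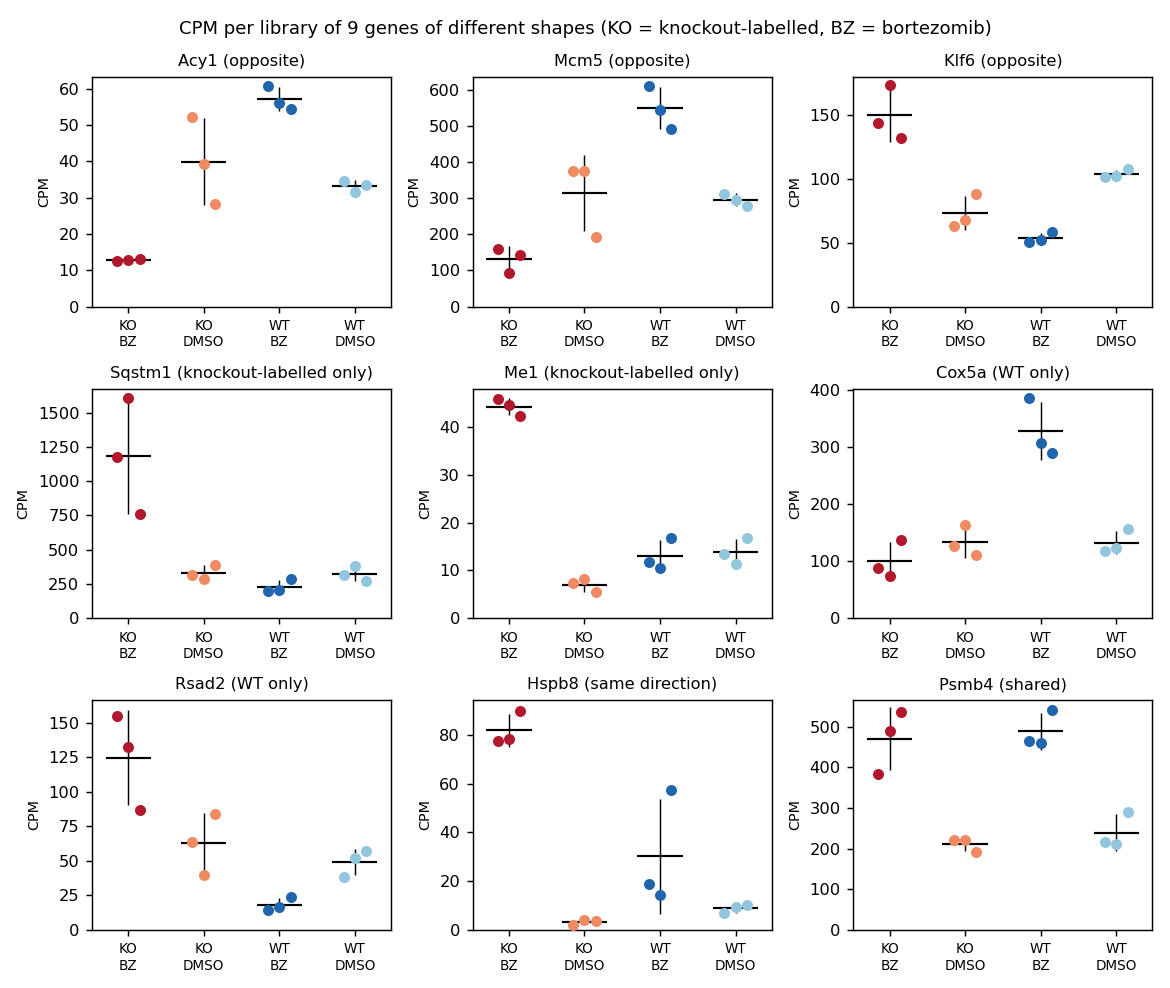
Expression in CPM (y axis, from 0) of 9 genes in each library (points) of the 4 groups (x axis), with the group mean as a horizontal bar and its SD as a vertical line (n = 3). Acy1 and Mcm5 were lowest in KO-labelled bortezomib and highest in WT bortezomib, Klf6 was the reverse, Sqstm1 and Me1 rose in KO-labelled HSCs, Cox5a rose and Rsad2 fell in WT HSCs, and Hspb8 and Psmb4 rose in both genotypes.

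The 936 genes called in WT HSCs only divided into 504 with a lower interaction, with a median response of -0.33 in KO-labelled HSCs and 0.99 in WT HSCs, and 432 with a higher interaction, with a median of 0.35 in KO-labelled HSCs and -1.19 in WT HSCs. Cox5a, a subunit of cytochrome c oxidase (chromosome 9, 57521274 to 57532426), belonged to the lower set. Cox5a had 88.9, 73.4 and 137 CPM in KO-labelled bortezomib, 127, 164 and 110.2 CPM in KO-labelled DMSO, 387, 308 and 290.1 CPM in WT bortezomib, and 118, 124 and 156 CPM in WT DMSO. The WT bortezomib libraries stood above the other 9, which overlapped. The Cox5a response was -0.42 ± 0.22 in KO-labelled HSCs and 1.31 ± 0.23 in WT HSCs, and the interaction was -1.73 ± 0.32 (edgeR adjusted p = 0.00855). Cycs, cytochrome c, averaged 48.1 ± 19.6 CPM in KO-labelled bortezomib, 61.5 ± 19.3 CPM in KO-labelled DMSO, 211 ± 26.8 CPM in WT bortezomib and 64.0 ± 12.5 CPM in WT DMSO, with an interaction of -2.08 (edgeR adjusted p = 0.00876, and 0.0513 with the Xist share). Naa50, an N-terminal acetyltransferase, averaged 147 ± 15.6 CPM in KO-labelled bortezomib, 195 ± 24.9 CPM in KO-labelled DMSO, 376 ± 26.7 CPM in WT bortezomib and 186 ± 4.13 CPM in WT DMSO, and its interaction of -1.42 ± 0.21 had an edgeR adjusted p of 0.00384. Cdk1, the kinase that drives entry into mitosis, averaged 67.1 ± 10.7 CPM in KO-labelled bortezomib, 89.1 ± 20.7 CPM in KO-labelled DMSO, 273 ± 45.2 CPM in WT bortezomib and 117 ± 19.9 CPM in WT DMSO. Ccne2, a cyclin E that acts at the start of S phase, averaged 30.3 ± 7.22 CPM in KO-labelled bortezomib, 51.8 ± 23.0 CPM in KO-labelled DMSO, 191 ± 35.6 CPM in WT bortezomib and 68.4 ± 14.4 CPM in WT DMSO. The interactions of Cdk1 and Ccne2 were -1.63 and -2.25 (edgeR adjusted p = 0.00769 and 0.0080). Ccne1, the other cyclin E gene, had an interaction of -3.05 (edgeR adjusted p = 0.00889, and 0.0565 with the Xist share).

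Cd48, whose protein the sort excluded, was also in the lower set. It had 8.64, 3.57 and 14.4 CPM in KO-labelled bortezomib, 13.8, 20.1 and 17.7 CPM in KO-labelled DMSO, 35.0, 30.2 and 54.3 CPM in WT bortezomib, and 11.3, 12.4 and 9.99 CPM in WT DMSO. WT bortezomib was above the other groups in every library. The Cd48 response was -0.95 ± 0.37 in KO-labelled HSCs and 1.83 ± 0.38 in WT HSCs, and the interaction was -2.78 ± 0.53 (edgeR adjusted p = 0.0093). T and NK cell markers, a list that holds 5 tested genes, summed to 63.4 to 139 CPM in KO-labelled bortezomib, 103 to 154 CPM in KO-labelled DMSO, 168 to 242 CPM in WT bortezomib and 106 to 110 CPM in WT DMSO. Most of each sum came from Nkg7, the 1 member called in the interaction. It averaged 68.9 CPM in KO-labelled bortezomib, 107 CPM in KO-labelled DMSO, 166 CPM in WT bortezomib and 74.0 CPM in WT DMSO. Cd2, Cd3e, Cd3g, Cd8a, Gzma, Il7r and Ncr1 of that list had no count in any of the 12 libraries.

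In the higher WT only set, Tek, the receptor of angiopoietin that HSCs and endothelial cells carry (chromosome 4, 94739289 to 94874976), had 117, 98.4 and 87.9 CPM in KO-labelled bortezomib, 94.4, 86.9 and 88.4 CPM in KO-labelled DMSO, 29.1, 32.4 and 24.1 CPM in WT bortezomib, and 73.0, 92.3 and 58.1 CPM in WT DMSO. The WT bortezomib libraries were below the other 9. The Tek response was 0.17 ± 0.19 in KO-labelled HSCs and -1.39 ± 0.19 in WT HSCs, and the interaction was 1.55 ± 0.27 (edgeR adjusted p = 0.00677). Robo4, a receptor that holds HSCs in their niche, averaged 77.8 ± 24.5 CPM in KO-labelled bortezomib, 63.2 ± 5.66 CPM in KO-labelled DMSO, 17.8 ± 2.58 CPM in WT bortezomib and 49.2 ± 10.2 CPM in WT DMSO. Its interaction was 1.77 (edgeR adjusted p = 0.00887), and that of Runx1, a transcription factor needed to form HSCs, was 1.13 (edgeR adjusted p = 0.0136, and 0.072 with the Xist share). Endothelial and stromal markers summed to 160.3 to 209.9 CPM in KO-labelled bortezomib, 119 to 185 CPM in KO-labelled DMSO, 82.0 to 169.7 CPM in WT bortezomib and 112 to 156 CPM in WT DMSO, and the part of such cells in the Tek and Robo4 values was not tested.

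Ppp1r15a, also known as Gadd34, which restores translation during stress, had 97.1, 137 and 51.3 CPM in KO-labelled bortezomib, 40.8, 48.3 and 55.8 CPM in KO-labelled DMSO, 17.5, 21.3 and 22 CPM in WT bortezomib, and 69.7, 64.2 and 53.9 CPM in WT DMSO. KO-labelled bortezomib replicate 3 lay within the range of the DMSO libraries, while the WT bortezomib libraries were the 3 lowest. The Ppp1r15a response was 0.98 ± 0.27 in KO-labelled HSCs (edgeR adjusted p = 0.0568) and -1.63 ± 0.28 in WT HSCs, with an interaction of 2.61 ± 0.39 (edgeR adjusted p = 0.00384). Osgin1, a gene induced by oxidative stress, averaged 64.7 ± 10.3 CPM in KO-labelled bortezomib, 34 ± 13.8 CPM in KO-labelled DMSO, 11.2 ± 1.79 CPM in WT bortezomib and 40.1 ± 4.80 CPM in WT DMSO, and its interaction was 2.77 ± 0.38 (edgeR adjusted p = 0.0028). Gadd45a, a stress sensor of the p53 pathway, and Tcp11l2 had interactions of 2.28 and 2.40 (edgeR adjusted p = 0.0143 and 0.00356). The Gadd45a adjusted p was 0.0617 with the Xist share and 0.0519 without KO-labelled DMSO replicate 2. Gpr18, a G protein-coupled receptor, had 4.88, 5.61 and 3.44 CPM in KO-labelled bortezomib, 4.60, 2.73 and 9.44 CPM in KO-labelled DMSO, 0, 0 and 0.149 CPM in WT bortezomib and 1.98, 2.83 and 2.47 CPM in WT DMSO. Its interaction was called (edgeR adjusted p = 0.0112), but with WT bortezomib at or near 0 the fitted value of 5.21, or 8.46 without WT bortezomib replicate 3, is no measure of size.

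Genes that rose in both genotypes with a called interaction numbered 5, and all 5 rose more in KO-labelled HSCs. Hspb8, a small heat shock protein that works with Bag3, had 77.4, 78.4 and 89.9 CPM in KO-labelled bortezomib, 2.09, 4.04 and 3.74 CPM in KO-labelled DMSO, 18.9, 14.1 and 57.4 CPM in WT bortezomib, and 6.71, 9.51 and 10.2 CPM in WT DMSO. Every bortezomib library was above every DMSO library, and WT bortezomib replicate 3 was well above the other 2 of its group. The Hspb8 response was 4.64 ± 0.47 in KO-labelled HSCs and 1.77 ± 0.41 in WT HSCs, and the interaction was 2.88 ± 0.58 (edgeR adjusted p = 0.0114). Pir, an iron-binding nuclear protein on the X chromosome, averaged 35.5 ± 1.69 CPM in KO-labelled bortezomib, 3.00 ± 0.877 CPM in KO-labelled DMSO, 9.89 ± 1.35 CPM in WT bortezomib and 3.56 ± 2.07 CPM in WT DMSO, with an interaction of 2.10 ± 0.55 (edgeR adjusted p = 0.0300, up to 0.091 over the alternatives). Psmd1 and Psmd4, subunits of the proteasome cap, had interactions of 0.78 and 0.77 (edgeR adjusted p = 0.0457 and 0.0394, up to 0.108 and 0.111 over the alternatives), and the fifth gene is noncoding and is not described here.

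Among the 258 genes with an interaction and neither response called, 131 had a higher and 127 a lower interaction. Rnaseh2b, a subunit of the nuclease that removes RNA from DNA, averaged 38.9 ± 9.84 CPM in KO-labelled bortezomib, 68.9 ± 18.2 CPM in KO-labelled DMSO, 133 ± 19.7 CPM in WT bortezomib and 82.8 ± 13.3 CPM in WT DMSO, with an interaction of -1.51 ± 0.32 (edgeR adjusted p = 0.0136, and 0.063 with the Xist share). Fas, a receptor of cell death, and Ccl5, a chemokine, had interactions of 2.27 and 3.91 (edgeR adjusted p = 0.028 and 0.0281, up to 0.0727 and 0.107 over the alternatives). No gene of this shape kept its interaction call under all 21 alternatives.

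Of the 113 shared genes, 68 rose and 45 fell in both genotypes. The rises had a median of 1.15 in KO-labelled HSCs and 1.03 in WT HSCs, and the falls had a median of -0.93 in KO-labelled HSCs and -0.91 in WT HSCs. For 66 of the 113 the 95% interval of the interaction lay within 1 log2 unit of 0. Psmb4, a subunit of the proteasome core (chromosome 3, 94884093 to 94886961), had 385, 490.0 and 535 CPM in KO-labelled bortezomib, 221, 222 and 192 CPM in KO-labelled DMSO, 466, 460.0 and 541 CPM in WT bortezomib, and 215, 210.0 and 291 CPM in WT DMSO. The 2 bortezomib groups overlapped each other and lay above both DMSO groups. The Psmb4 response was 1.15 ± 0.17 in KO-labelled HSCs and 1.03 ± 0.17 in WT HSCs, and the interaction was 0.12 ± 0.24. Psmd14, the deubiquitinase of the proteasome cap, responded by 1.29 ± 0.21 in KO-labelled HSCs and 1.31 ± 0.21 in WT HSCs, with an interaction of -0.01 ± 0.29. Cd53, a tetraspanin of blood cells, averaged 662 ± 193 CPM in KO-labelled bortezomib, 202 ± 27.2 CPM in KO-labelled DMSO, 306 ± 42.4 CPM in WT bortezomib and 88.2 ± 34.9 CPM in WT DMSO. Fbxo2, the glycoprotein-binding part of a ubiquitin ligase, averaged 25.3 ± 0.722 CPM in KO-labelled bortezomib, 0.250 ± 0.388 CPM in KO-labelled DMSO, 9.78 ± 2.89 CPM in WT bortezomib and 0.266 ± 0.255 CPM in WT DMSO, and its interaction was not called (edgeR adjusted p = 0.416). With both DMSO groups near 0 the fitted interaction is no measure of size: it was 1.59 ± 1.14, ran from 0.91 to 4.52 when 1 library was left out, and was called under 1 alternative, without KO-labelled DMSO replicate 3 (adjusted p = 0.0456).

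Among the shared falls, Mamdc2, a secreted protein, had 27.9, 31.4 and 32.9 CPM in KO-labelled bortezomib, 89.1, 98.9 and 105 CPM in KO-labelled DMSO, 29.0, 40.2 and 40.1 CPM in WT bortezomib, and 92.6, 92.1 and 85.5 CPM in WT DMSO. The bortezomib libraries were all below the DMSO libraries, and the genotypes overlapped within each treatment. Angpt1, the ligand of Tek, averaged 282 ± 4.44 CPM in KO-labelled bortezomib, 553 ± 74.3 CPM in KO-labelled DMSO, 327 ± 4.29 CPM in WT bortezomib and 747 ± 115 CPM in WT DMSO, so it fell in both genotypes whereas its receptor was called in WT HSCs only. The Angpt1 interaction was 0.22 ± 0.22. Itih5 and Pygm, muscle-type glycogen phosphorylase, fell by 1.64 and 2.05 in KO-labelled HSCs and by 1.44 and 1.81 in WT HSCs (log2).

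The named pathways followed different shapes, and each is given below as called members of tested members beside the background of 4.35% higher and 4.71% lower. The proteasome list of 37 genes mostly rose in both genotypes. In KO-labelled HSCs 26 members rose and in WT HSCs 32, none fell in either (edgeR adjusted p under 0.05), and 22 were shared. The median response was 0.88 in KO-labelled HSCs and 0.92 in WT HSCs. The interaction was called by edgeR for 5 members, higher for Psmd3, Psmd1 and Psmd4, which belong to the cap, and lower for Psmg1 and Psmg2, which help assemble the core. DESeq2 called 5 members higher and 2 lower, and limma voom 7 higher and 15 lower. Psmd3 averaged 506 ± 92.5 CPM in KO-labelled bortezomib, 206 ± 22.8 CPM in KO-labelled DMSO, 228 ± 7.12 CPM in WT bortezomib and 193 ± 15.2 CPM in WT DMSO, with an interaction of 1.05 ± 0.23 (edgeR adjusted p = 0.0143). Psmg1 averaged 67.8 ± 28.0 CPM in KO-labelled bortezomib, 93.9 ± 16.4 CPM in KO-labelled DMSO, 166 ± 9.69 CPM in WT bortezomib and 94.1 ± 2.77 CPM in WT DMSO, with an interaction of -1.28 ± 0.33 (edgeR adjusted p = 0.0275). The Psmd3 call was lost with the Xist share as a covariate (adjusted p = 0.0608) and without KO-labelled DMSO replicate 2 (0.0505). The Psmg1 call was lost under 8 alternatives, with adjusted p up to 0.103.

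Of 33 heat shock and chaperone genes, 5 had a higher interaction, among them the small heat shock gene Hspb8 and the co-chaperone Bag3, and 7 a lower one. Most of the lower ones were subunits of the CCT chaperonin, which folds actin and tubulin. Hspe1, the Hsp10 partner of the mitochondrial chaperonin, averaged 107 ± 56.8 CPM in KO-labelled bortezomib, 168 ± 65.2 CPM in KO-labelled DMSO, 543 ± 100.3 CPM in WT bortezomib and 193 ± 39.6 CPM in WT DMSO, with an interaction of -2.14 ± 0.45 (edgeR adjusted p = 0.0132, and 0.073 with the Xist share). In WT HSCs 14 members of this list rose and in KO-labelled HSCs 3 did. The lower calls were 1 without KO-labelled DMSO replicate 1 or 2, WT bortezomib replicate 1 or WT DMSO replicate 2, and 3 or 4 without KO-labelled bortezomib replicate 1 or 2, WT bortezomib replicate 2 or WT DMSO replicate 1. They were 12 without KO-labelled bortezomib replicate 3 or KO-labelled DMSO replicate 3, and 0 with the Xist share.

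Autophagy genes tended to the higher side. Of 32 core autophagy genes, 7 had a higher interaction and 0 a lower one (DESeq2 11 and 0, limma voom 13 and 1), and the median was 0.35, or 0.22 with length and GC offsets and 0.23 without KO-labelled bortezomib replicate 2. Gabarapl1 was the opposite member described above, and Rb1cc1 was of the WT only shape. Rb1cc1, also known as FIP200, a subunit of the kinase complex that starts autophagy, averaged 98.9 ± 35.5 CPM in KO-labelled bortezomib, 75.0 ± 6.25 CPM in KO-labelled DMSO, 31.7 ± 4.35 CPM in WT bortezomib and 75.3 ± 21.0 CPM in WT DMSO, with an interaction of 1.64 ± 0.36 (edgeR adjusted p = 0.0143). Of 23 autophagy receptors and aggresome factors, 4 were higher and 1 lower. The higher ones were Sqstm1, Calcoco1, Optn and Tbk1, and the lower one was Phb2, a prohibitin of the inner mitochondrial membrane. Calcoco1 averaged 74.6 ± 23.4 CPM in KO-labelled bortezomib, 60.5 ± 11.5 CPM in KO-labelled DMSO, 14.8 ± 3.21 CPM in WT bortezomib and 46.7 ± 16.9 CPM in WT DMSO, with an interaction of 1.96 ± 0.42 (edgeR adjusted p = 0.0136). Phb2 averaged 169.8 ± 30.5 CPM in KO-labelled bortezomib, 218 ± 37.9 CPM in KO-labelled DMSO, 445 ± 28.6 CPM in WT bortezomib and 229 ± 15 CPM in WT DMSO, with an interaction of -1.32 ± 0.24 (edgeR adjusted p = 0.00819). With the Xist share as a covariate 1 core autophagy gene remained called, and the Rb1cc1 and Calcoco1 adjusted p became 0.0608 and 0.0813.

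All 38 members of the DNA replication list had an interaction below 0, 30 were called lower and 0 higher, and the median was -1.46, with median responses of -0.70 in KO-labelled HSCs and 0.73 in WT HSCs. By shape, 17 were WT only, 8 KO only, 2 opposite and 3 neither. Rfc5, a subunit of the clamp loader, averaged 126 ± 22 CPM in KO-labelled bortezomib, 176 ± 39.4 CPM in KO-labelled DMSO, 387 ± 47.4 CPM in WT bortezomib and 197 ± 21.0 CPM in WT DMSO, with an interaction of -1.46 ± 0.27 (edgeR adjusted p = 0.00819). The 41 genes of mitosis and the spindle had a median of -0.996 with 6 called lower and 0 higher, and 23 G1 cyclins, CDK inhibitors and E2F genes had 8 lower and 1 higher. The replication count was 19, 13, 15 and 16 without KO-labelled DMSO replicate 1, KO-labelled DMSO replicate 2, WT bortezomib replicate 1 and WT DMSO replicate 2, and 12 with the Xist share as a covariate. Its median lay between -1.44 and -1.64 under the alternatives other than leaving out 1 library.

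Of 74 nuclear genes of oxidative phosphorylation, 43 had a lower and 0 a higher interaction, and 42 of the 43 were WT only. In WT HSCs 64 rose and 0 fell, with a median of 0.94, and in KO-labelled HSCs 0 were called, with a median of -0.19 (edgeR adjusted p under 0.05). The median interaction was -1.05, or -1.74 without the 3 libraries numbered 3. Of the 13 protein-coding transcripts of the mitochondrial genome, 2 had a higher interaction and 0 a lower one, with a median of 0.47. That median was 0.28 without KO-labelled bortezomib replicate 3, 0.29 without WT DMSO replicate 3, 0.18 without the 3 libraries numbered 3 and 0.73 with length and GC offsets. Among these, mt-Nd6, a subunit of complex I read from the other strand than the rest, averaged 253 ± 37.1 CPM in KO-labelled bortezomib, 264 ± 33.4 CPM in KO-labelled DMSO, 108 ± 25.5 CPM in WT bortezomib and 235 ± 40.7 CPM in WT DMSO, with an interaction of 1.06 ± 0.27 (edgeR adjusted p = 0.0279, up to 0.0911 over the alternatives). The 80 cytosolic ribosomal protein genes had a median of -0.61, with 5 called lower and 0 higher, and 76 of 80 below 0. Their median was -0.30 with the Xist share, -0.96 with limma voom and -1.04 without the 3 libraries numbered 3. Rpl27, a protein of the large subunit, averaged 358 ± 81.3 CPM in KO-labelled bortezomib, 361 ± 52.2 CPM in KO-labelled DMSO, 742 ± 36.4 CPM in WT bortezomib and 343 ± 86.8 CPM in WT DMSO, with an interaction of -1.12 ± 0.28 (edgeR adjusted p = 0.0254, up to 0.115 over the alternatives). The count of 43 was 1 with the Xist share as a covariate, and the 9 libraries that moved the total count moved this one too, to between 5 and 66. The ribosomal count was 0 with the Xist share, and 0 without KO-labelled bortezomib replicate 1 or 2, KO-labelled DMSO replicate 2, WT bortezomib replicate 1 or 2, or WT DMSO replicate 1 or 2. It was 3 without KO-labelled DMSO replicate 1 and 2 without KO-labelled DMSO replicate 3. It was 30 without KO-labelled bortezomib replicate 3, 29 without WT DMSO replicate 3, and 70 with limma voom.

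Short transcripts were common among genes with a lower interaction. The median transcript length was 3436 bases for genes with a higher interaction and 2242 bases for those with a lower one, against 2956 bases over all genes tested. Across genes, which are not independent replicates, Spearman's rho with length was 0.16 for the interaction, -0.05 for the KO-labelled response and -0.25 for the WT response, over the same 12 libraries. For the difference of KO-labelled from WT HSCs it was 0.27 in DMSO and 0.28 under bortezomib, so a length trend was also present without the drug. With length and GC offsets 57 oxidative phosphorylation genes were called lower and the list's median was -0.95.

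**Figure D4:**
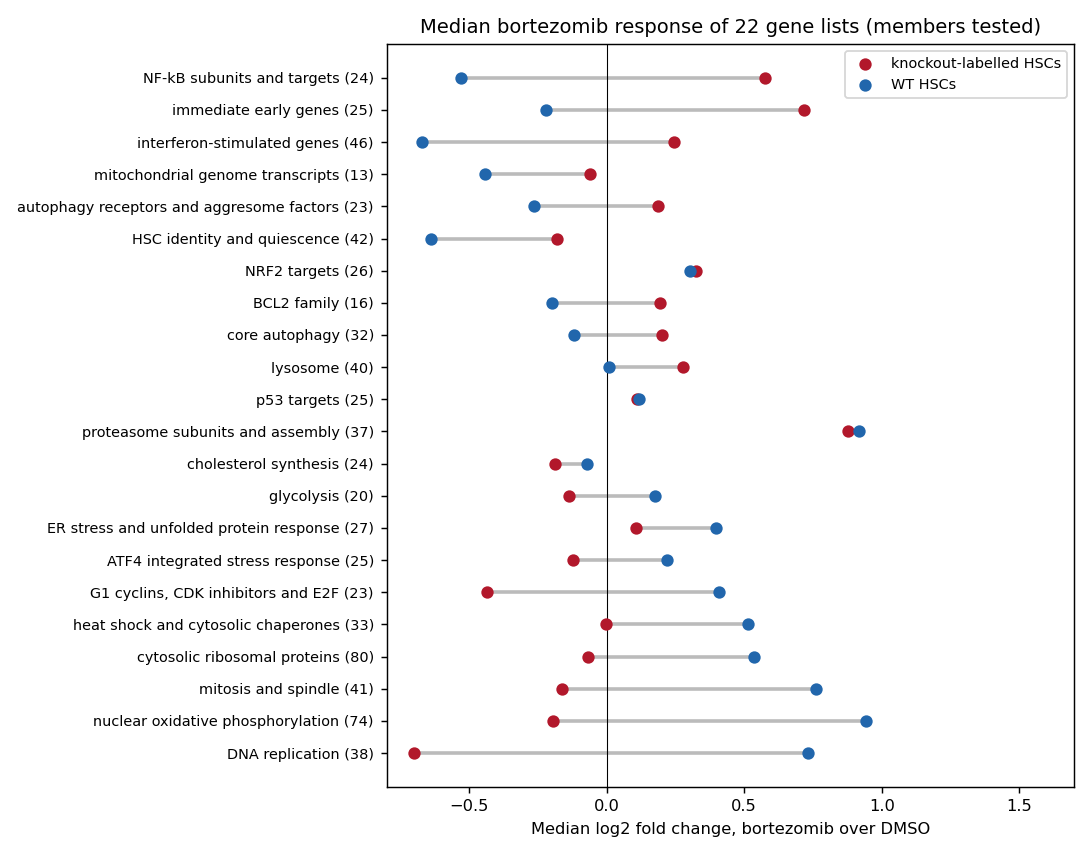
Median log2 fold change with bortezomib (x axis) over the tested members of 22 gene lists (rows, number of members in brackets), in KO-labelled HSCs (red) and in WT HSCs (blue). The proteasome medians nearly coincide, at 0.88 in KO-labelled and 0.92 in WT HSCs, while the DNA replication medians lie apart at -0.70 in KO-labelled and 0.73 in WT HSCs, as do those of oxidative phosphorylation at -0.19 in KO-labelled and 0.94 in WT HSCs.

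Interferon-stimulated genes moved the other way. Of 46 tested, 15 had a higher interaction and 0 a lower one, 40 were above 0, and the median was 0.96, with median responses of 0.24 in KO-labelled HSCs and -0.67 in WT HSCs. The called genes comprised 11 WT only, 1 opposite and 3 neither. Rsad2, also known as viperin, an antiviral enzyme, had 154, 132 and 86.9 CPM in KO-labelled bortezomib, 63.7, 39.9 and 84.0 CPM in KO-labelled DMSO, 14.5, 16.3 and 24.0 CPM in WT bortezomib, and 38.3, 52.0 and 56.7 CPM in WT DMSO. The WT bortezomib libraries were the 3 lowest and the KO-labelled bortezomib libraries the 3 highest, the third only just above a KO-labelled DMSO library. The Rsad2 response was 0.99 ± 0.28 in KO-labelled HSCs (edgeR adjusted p = 0.0635) and -1.43 ± 0.29 in WT HSCs, and the interaction was 2.42 ± 0.40 (edgeR adjusted p = 0.00565). Cxcl10, a chemokine induced by interferon, had 27.2, 41.7 and 19.7 CPM in KO-labelled bortezomib, 9.33, 6.09 and 10.0 CPM in KO-labelled DMSO, 1.09, 2.43 and 2.39 CPM in WT bortezomib, and 3.05, 6.02 and 6.46 CPM in WT DMSO. Its responses were 1.80 ± 0.38 in KO-labelled HSCs and -1.40 ± 0.40 in WT HSCs, with an interaction of 3.20 ± 0.55 (edgeR adjusted p = 0.00653). Gbp2, a GTPase induced by interferon, averaged 196 ± 104 CPM in KO-labelled bortezomib, 107 ± 24.0 CPM in KO-labelled DMSO, 41.5 ± 3.27 CPM in WT bortezomib and 103 ± 4.15 CPM in WT DMSO, with an interaction of 2.19 ± 0.40 (edgeR adjusted p = 0.00819, and 0.0517 with the Xist share).

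The interferon count was 7, 9, 4, 3, 6 and 5 without KO-labelled bortezomib replicate 1, KO-labelled DMSO replicate 1, KO-labelled DMSO replicate 2, WT bortezomib replicate 1, WT bortezomib replicate 2 and WT DMSO replicate 2. With the Xist share as a covariate 2 of the genes were called and the median was 0.46, and without KO-labelled bortezomib replicate 1 the median was 0.60. B cell markers summed to 307 to 662 CPM in KO-labelled bortezomib, 204 to 589 CPM in KO-labelled DMSO, 182 to 200 CPM in WT bortezomib and 230.2 to 361 CPM in WT DMSO. Monocyte and macrophage markers summed to 328 to 695 CPM in KO-labelled bortezomib, 507 to 626 CPM in KO-labelled DMSO, 665 to 956 CPM in WT bortezomib and 724 to 964 CPM in WT DMSO. Igll1, Ms4a1 and Pax5 of the B cell list had no count in any library. No member of either list was called in the interaction by edgeR. At an edgeR unadjusted p under 0.05, 3 of 7 B cell genes were higher and 0 lower. Of 16 monocyte and macrophage genes, 5 were lower and 1 higher at that threshold. DESeq2 called 2 monocyte and macrophage genes lower and 0 B cell genes. With limma voom, 2 B cell genes were called higher and 1 monocyte and macrophage gene lower. The part of such cells in the interferon values was not tested.

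NF-kB subunits and targets had 7 higher and 0 lower of 24 tested, with a median of 1.12, and immediate early genes had 6 higher and 0 lower of 25, with a median of 1.02, or 0.65 without WT DMSO replicate 3. In KO-labelled HSCs 7 immediate early genes rose and 0 fell, with a median response of 0.72, and in WT HSCs 2 rose and 3 fell, with a median of -0.22. The called immediate early genes were Ier3, Socs3, Junb and Egr1, which were KO only, with Klf6 and Zfp36. HSC identity and quiescence genes had 6 higher and 1 lower of 42. Their median response was -0.18 in KO-labelled HSCs and -0.64 in WT HSCs, where 18 fell and 0 rose, against 5 that fell and 2 that rose in KO-labelled HSCs. With the Xist share as a covariate the higher calls were 2 for each of these 3 lists.

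Calls in the remaining pathway lists, beside the same background of 4.35% higher and 4.71% lower, were as follows. Lysosome genes had 6 higher and 1 lower of 40. ATF4 targets of the integrated stress response had 4 higher, Ppp1r15a among them, and 6 lower of 25, Phgdh among them. NRF2 targets had 3 higher, among them Me1 and Srxn1, and 1 lower of 26, and glycolysis genes had 0 higher and 6 lower of 20, Tpi1 among them. Genes of the unfolded protein response had 1 higher and 1 lower of 27, p53 targets 3 higher and 0 lower of 25, and the BCL2 family 1 higher and 1 lower of 16. Cholesterol synthesis had 0 of 24 called by edgeR or DESeq2, 3 higher and 3 lower at an unadjusted p under 0.05, and 2 higher and 2 lower by limma voom. On the X chromosome 17 genes were higher and 31 lower of 584 tested, which is 8.22% against 9.08% of all other genes.

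The counts of 0 above were checked at an unadjusted p under 0.05 and with the other tools. The replication, mitosis, oxidative phosphorylation and ribosomal lists had 0 members with a higher interaction by edgeR at an unadjusted p under 0.05, by DESeq2 and by limma voom. In the other direction, 2 interferon genes, 1 NF-kB gene, 0 immediate early genes and 1 core autophagy gene were lower at an unadjusted p under 0.05. DESeq2 called 0, 1, 0 and 0 of these lists lower and limma voom 3, 1, 1 and 1. For glycolysis 2 genes were higher at an unadjusted p under 0.05, 1 by DESeq2 and 4 by limma voom. For p53 targets 3 were lower at an unadjusted p under 0.05, 2 by DESeq2 and 4 by limma voom, and for the mitochondrial genome the counts were 0, 0 and 1. In KO-labelled HSCs 5 oxidative phosphorylation genes fell and 0 rose at an unadjusted p under 0.05.

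**Figure D5:**
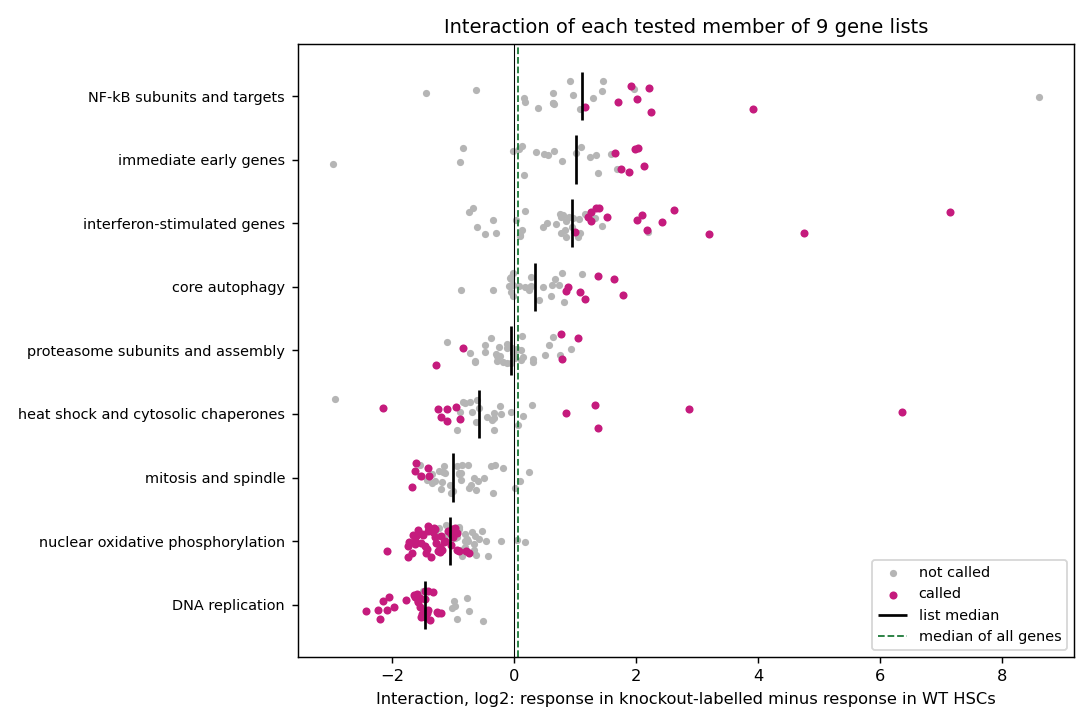
Interaction on the log2 scale (x axis) of each tested member (points, pink if called) of 9 gene lists (rows), with the list median as a black bar, zero as a solid line and the median of all genes, 0.06, as a dashed line. The called members of the NF-kB, immediate early, interferon and autophagy lists all lie above 0, those of the replication, mitosis and oxidative phosphorylation lists all lie below 0, and those of the proteasome and chaperone lists lie on both sides.

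The promoters of some of these genes are shown for the sequence elements that they hold. For interferon-stimulated genes the element searched was the core of the interferon-stimulated response element, GAAA followed by any 2 bases and GAAA on either strand, which is known to bind STAT and IRF factors. It was present in 9 of 14 promoters (64.3%) of interferon-list genes with a called interaction, in 12 of 26 promoters (46.2%) of list genes tested but not called, and in 3.17% of the 13545 promoters of all tested genes. The promoters are those of RefSeq on GRCm38.p6, from 250 bases before to 50 after the start, and 10617 of 16140 gene symbols matched. The 250 bases before the start of Cxcl10 (chr5:92348890-92349139, minus strand) and Rsad2 (chr12:26456453-26456702, minus strand) each hold 1 match, shown in capitals, which begins 213 and 120 bases before the start.
Cxcl10: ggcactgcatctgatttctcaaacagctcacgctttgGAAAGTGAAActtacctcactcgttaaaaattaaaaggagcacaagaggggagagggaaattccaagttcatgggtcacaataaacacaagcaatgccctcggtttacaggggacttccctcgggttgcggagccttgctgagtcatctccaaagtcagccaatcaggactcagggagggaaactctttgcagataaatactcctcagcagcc
Rsad2: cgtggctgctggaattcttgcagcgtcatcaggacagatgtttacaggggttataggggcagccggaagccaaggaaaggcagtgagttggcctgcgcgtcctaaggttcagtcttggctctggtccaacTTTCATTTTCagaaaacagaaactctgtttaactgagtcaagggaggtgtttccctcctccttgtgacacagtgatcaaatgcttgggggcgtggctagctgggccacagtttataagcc

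For the genes that rose in KO-labelled HSCs only, the AP-1 site TGANTCA, which is known to bind FOS and JUN factors, was present in 16 of 110 promoters (14.5%), against 0 of 107 promoters of genes that fell in KO-labelled HSCs only and 5.29% of all promoters. The site was not confined to that shape. Over all shapes it was present in 8.49% of promoters of genes with a higher interaction and 3.94% with a lower one. In the interferon list it was present in 5 of 14 promoters of genes called higher and 5 of 26 of those not called. The Cxcl10 and Rsad2 sequences above also contain TGAGTCA, in small letters. An AP-1 site followed by GC also matches the core of the antioxidant response element, TGANNNNGC, bound by NRF2. That core was present in 43.6% of the promoters of KO only rises, 38.3% of those of KO only falls and 42.7% of all promoters. The palindromic ATF and CREB element, the heat shock element pair GAANNTTC and the ATF4 element were present in 1.82%, 5.45% and 1.82% of the promoters of KO only rises, against 2.95%, 5.83% and 0.561% of all promoters. The 250 bases before the start are shown for Srxn1 (chr2:152105274-152105523, plus strand), with AP-1 sites that begin 102 and 45 bases before the start, and for Bag3 (chr7:128523333-128523582, plus strand), with an AP-1 site that begins 20 bases before it. The sites are in capitals, and a match of letters does not show binding.
Srxn1: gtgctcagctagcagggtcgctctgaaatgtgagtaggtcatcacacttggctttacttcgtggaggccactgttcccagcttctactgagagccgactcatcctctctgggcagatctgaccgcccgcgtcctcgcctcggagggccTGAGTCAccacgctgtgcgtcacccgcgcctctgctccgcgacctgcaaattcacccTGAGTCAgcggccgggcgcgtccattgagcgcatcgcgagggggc
Bag3: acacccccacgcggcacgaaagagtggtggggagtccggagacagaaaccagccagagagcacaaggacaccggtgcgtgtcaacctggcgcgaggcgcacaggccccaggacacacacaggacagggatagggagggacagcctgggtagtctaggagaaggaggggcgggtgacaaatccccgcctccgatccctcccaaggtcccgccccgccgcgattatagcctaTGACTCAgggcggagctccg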

How the data were processed

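Gene counts were deposited by the authors as 1 table of raw counts per gene. The submitters' processing notes name Bowtie 1.0.0, STAR 2.6.1 and HTSeq 0.7.1 and the builds GRCm38.p4 and GRCh38, without their roles. RNA came from the RNeasy Plus Micro kit and libraries from SMART-seq2, per the labels' protocols. The strand setting is not given in the sources used here and neither is the annotation release, so overlapping and antisense genes cannot be told apart.

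The 12 libraries of the treatment experiment were fitted together in edgeR 4.0.16 (R 4.3.3) with a mean per group, after filterByExpr kept 16149 of 47729 genes and TMM scaling. Quasi-likelihood tests were adjusted by Benjamini-Hochberg over all genes tested and called under 0.05. CPM were computed from TMM-scaled library sizes, and 3 counts correspond to 0.0964 to 0.190 CPM, which covers counting error only. Gene coordinates are those of GENCODE on GRCm38. Steps were tested on simulated counts, with changes seeded in KO-labelled bortezomib alone. Of 100 seeded interactions of 1 log2 unit 9 were called, and of 100 of 2 log2 units 56 were. There were 4 false calls among 15604 genes tested. A gene without a called interaction may therefore still have one of this size. The simulated counts held no difference in Xist share, shift of replicates or length trend, and genes with low counts were not seeded. The false calls and the share recovered may therefore differ in the real data. Alternatives comprised 21 settings, among them DESeq2 1.42.0 and limma 3.58.1. Genes were named by a rule: Atg5, the 10 largest interactions each way, the 4 smallest p of each shape, up to 3 called members of each list and 8 shared genes, all protein coding with at least 5 CPM in the highest group. List members named without values, to account for a count, lie outside the rule and were chosen after their values were seen. The text describes part of them, mostly those whose calls held, so the named genes are steadier than the calls at large: 40 of the 64 called genes named here held under every alternative, against 43 of 97 given by the rule. Nkg7, named for its share of a marker sum, is not counted among the 64. The genes, lists and shapes were chosen with earlier results of these data known.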

Additional observations from a re-analysis of the deposited data

Results flagged for a closer look

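The test of the difference itself, the interaction of genotype and bortezomib, was called for 1462 genes, and its values for the 64 genes named in the report are repeated here because the effect of the drug differed between genotypes. The values are log2 differences, the response in KO-labelled HSCs minus the response in WT HSCs. No explanation was tested.

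Among genes that moved in opposite directions, those that fell in KO-labelled HSCs had interactions of -2.43 for Acy1, -2.14 for Mcm5, -2.43 for Tk1, -2.01 for E2f1, -1.73 for Phgdh, -3.46 for Sdc1, -3.37 for Bok, -4.14 for Hbb-bt and -2.89 for Scrib. Those that rose in KO-labelled HSCs had 1.98 for Klf6, 2.32 for Tcta, 2.91 for Phf1, 1.08 for Gabarapl1, 1.92 for Birc3, 3.20 for Cxcl10, 5.17 for Fam46c and 4.91 for Cttnbp2nl.

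Genes called in KO-labelled HSCs only had interactions of 2.34 for Sqstm1, 2.76 for Me1, 1.33 for Srxn1, 1.37 for Bag3, 2.13 for Ier3, 1.89 for Socs3, 1.82 for Csf2rb, 1.61 for Chpf2, 1.95 for Scpep1, 2.09 for Itgb3, 1.05 for Psmd3, -1.05 for Vwf, -1.30 for Tpi1 and -2.74 for Syt3. The fitted value for Nol3, 8.30, rests on a group whose counts are all 0, and that for Gpr18, 5.21, on WT bortezomib at or near 0, so neither is a measure of size.

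Genes called in WT HSCs only had interactions of -1.73 for Cox5a, -2.08 for Cycs, -1.46 for Rfc5, -1.63 for Cdk1, -3.05 for Ccne1, -2.25 for Ccne2, -2.78 for Cd48, -2.14 for Hspe1, -1.32 for Phb2, -1.42 for Naa50, -1.12 for Rpl27 and -1.28 for Psmg1. With the other sign they were 1.06 for mt-Nd6, 1.55 for Tek, 1.77 for Robo4, 1.13 for Runx1, 2.42 for Rsad2, 2.19 for Gbp2, 2.77 for Osgin1, 2.61 for Ppp1r15a, 2.40 for Tcp11l2, 1.96 for Calcoco1, 1.64 for Rb1cc1 and 2.28 for Gadd45a, besides Gpr18 above.

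Genes that rose in both genotypes had 2.88 for Hspb8, 2.10 for Pir, 0.78 for Psmd1 and 0.77 for Psmd4, and genes with neither response called had -1.51 for Rnaseh2b, 2.27 for Fas and 3.91 for Ccl5.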

How the results depend on the processing

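Every gene named for a called interaction kept its sign under the 21 alternatives. Shared genes crossed 0 without being called: Psmb4 ran from -0.14 to 0.30, Psmd14 from -0.52 to 0.30, Cd53 from -0.52 to 0.22, Itih5 from -0.51 to 0.06 and Pygm from -0.42 to 0.20. More genes were higher than lower with the Xist share, limma voom, no filter and 7 of the 12 settings that left out 1 library, and fewer in the main fit. With relative log expression size factors every count stayed within 1.5 times the main one. DESeq2 called 2443 genes (1193 higher, 1250 lower; 440 KO only, 1489 WT only, 162 opposite, 11 same direction, 213 shared), and limma voom with sample quality weights 4862 (2470 higher, 2392 lower; 492 KO only, 3240 WT only, 609 opposite, 36 same direction, 485 neither, 235 shared). Without a filter on low counts the count was 2319 (1194 higher; 372 KO only, 176 opposite, 16 same direction, 184 shared). Length and GC offsets gave 1364 lower, 109 opposite, 8 same direction and 402 neither. With the Xist share as a covariate the count was 276 (151 higher, 125 lower; 85 KO only, 151 WT only, 24 opposite, 2 same direction, 14 neither). Without the 3 libraries numbered 3 it was 4015 (1891 higher, 2124 lower; 648 KO only, 2152 WT only, 600 opposite, 23 same direction, 592 neither, 182 shared). The cause of these changes was not tested.

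Replicate numbers are shared by the groups, but same-numbered libraries deviated together only weakly (correlations from -0.028 to 0.20 over 18 pairs, 2 of them over 0.1), which did not meet the condition for pairs. The third principal component set those numbered 3 apart in 3 of 4 groups, at -47.6 in KO-labelled bortezomib, -38.0 in WT bortezomib and -65.2 in WT DMSO. The replicate block gave 1889 genes, with 11 same direction, and with length and GC offsets 2400 (1605 lower; 363 KO only, 1463 WT only, 156 opposite, 14 same direction, 404 neither).

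Leaving out 1 library gave 352 to 2820 genes, 186 to 1230 higher and 166 to 1590 lower, with 8 to 273 opposite, 44 to 407 KO only, 147 to 1608 WT only, 1 to 8 same direction, 48 to 524 neither and 50 to 134 shared. With 3 libraries a group, leaving 1 out also lowers the number of libraries from which the spread is estimated. Each library's depth limits genes under 0.0964 to 0.190 CPM.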
